A study of Mus musculus with 3 samples.

Results

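Transcripts of 7 visual cycle genes, Rlbp1, Rdh10, Rgr, Rdh8, Rdh12, Rbp3 and Abca4, were followed by droplet single-cell RNA-seq through the cell classes of the mouse retina. They were listed by name as known carriers, enzymes and transporters of retinoids, and all 7 were found among the 18545 genes of the deposited matrix. The comparison set Müller glia (MG, cluster 0 of the deposited clustering) against photoreceptors (rods in cluster 1, cones in cluster 4), and each class was then compared between mice. Rlbp1, Rdh10 and Rgr are referred to as the glial genes, and Rdh8, Rdh12, Rbp3 and Abca4 as the photoreceptor genes, after their known sites of expression.

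The study asked how retinal cells of rd10 mice respond to a dietary drug combination. The retinas came from 8-week-old mice on the C57BL/6J background that had lived in darkness since birth, and 1 library was made per group. The wildtype (WT) pool took 1 retina from each of 2 female and 2 male mice fed base chow. The rd10-vehicle and rd10-TMB pools came from females that carry the Pde6b point mutation of this retinitis pigmentosa model, fed base chow or the same chow with tamsulosin (an alpha-1 adrenergic blocker), metoprolol (a beta-1 adrenergic blocker) and bromocriptine (a D2-like dopamine receptor agonist). Per the labels each rd10 pool also held 4 retinas, whereas the text of the study names a smaller number. Dark rearing slows the degeneration of rd10 retinas, and all 3 groups shared it, so no value here was obtained under cyclic light. Sex and genotype cannot be told apart in the comparisons with WT beyond what leaving out cells of the WT males shows. The mutation itself could not be read from 3′ tag counts.

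With 1 pooled library per group there was no replicate, so no test between groups was possible and no p-value is given. Values are CPM, that is counts of a gene per 1000000 summed unique molecular identifiers (UMIs) of a class, with exact 95% intervals that cover counting error only. A gene with at least 20 UMIs over both sums was described as higher or lower past a ratio of 1.5 between libraries of a class, or past 2 between classes of a library. Such a call is a size, not a significance, and the percentages of all genes past the same size stand beside the counts. The 3 comparisons between libraries share those libraries and are not independent of each other.

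The libraries held 4478 (WT), 5952 (rd10-vehicle) and 4812 (rd10-TMB) cells, with medians of 3509.5, 4811.5 and 4772.5 UMIs per cell. The 3 libraries shared 25 cell barcodes, and leaving out those 50 cells moved no median of the gene groups beyond the median counting limits of its members. All 9 MG markers, 6 rod markers and 7 cone markers that were searched, none of them a visual cycle member, were raised in clusters 0, 1 and 4, which are called MG-like, rod-like and cone-like. MG-like cells numbered 530, 2492 and 1748 in the WT, rd10-vehicle and rd10-TMB libraries, rod-like cells 1180, 556 and 746, and cone-like cells 278, 542 and 412. Cluster 15, with 13, 35 and 16 cells, raised 10 of 11 markers of the retinal pigment epithelium (RPE), with Best1 at 0 UMIs in all 3 libraries, and is called RPE-like.

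Vision begins when light turns the 11-cis-retinal of an opsin into all-trans-retinal, and the visual cycle is the set of reactions that restores the 11-cis form. In the classical route the photoreceptor reduces all-trans-retinal, the RPE esterifies and isomerizes the product, and 11-cis-retinal returns across the interphotoreceptor matrix. Müller glia take part in a further supply of chromophore that serves cones. RLBP1 (CRALBP) binds 11-cis-retinoids in glia and RPE, RDH10 is a retinol dehydrogenase, and RGR is an opsin that isomerizes all-trans-retinal in light. RDH8 and RDH12 reduce retinal in the outer and inner segments of photoreceptors, ABCA4 moves retinal bound to phosphatidylethanolamine across the disc membrane, and RBP3 (IRBP) carries retinoids between cells.

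On GRCm38 (GENCODE M21) Rlbp1 lies on the minus strand at chr7:79374870-79387048, Rdh10 on the plus strand at chr1:16105774-16133734 and Rgr on the minus strand at chr14:37034909-37048964. Rdh8 spans chr9:20818503-20826117, Rdh12 chr12:79208914-79222665, Rbp3 chr14:33954003-33964216 and Abca4 chr3:122044443-122180123, all on the plus strand. Abca4 is overlapped by 2 pseudogenes on the minus strand, Gm43158 and Gm43157, and the other members overlap no annotated gene. Upstream sequence is shown for 2 glial and 2 photoreceptor genes, since the members divided by cell class and the short homeodomain motif TAATCC, recognized by CRX and OTX2 in photoreceptors and RPE, can be looked for there. RefSeq promoter sequences on GRCm38.p6 were found for 6 of 7 members, all but Rdh10. Each run below covers the 220 bases from 250 to 31 before the start site used in the RefSeq promoter table, which for Rlbp1 and Abca4 is not the outermost start of the RefSeq gene, written 5′ to 3′ on the strand of the gene, with TAATCC or its reverse complement GGATTA in capitals.
Rlbp1 (chr7:79387058-79387277, minus strand): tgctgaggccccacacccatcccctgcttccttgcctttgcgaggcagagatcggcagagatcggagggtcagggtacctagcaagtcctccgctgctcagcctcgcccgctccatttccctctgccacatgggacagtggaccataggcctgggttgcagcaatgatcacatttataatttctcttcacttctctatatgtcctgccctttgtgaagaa
Rgr (chr14:37049045-37049264, minus strand): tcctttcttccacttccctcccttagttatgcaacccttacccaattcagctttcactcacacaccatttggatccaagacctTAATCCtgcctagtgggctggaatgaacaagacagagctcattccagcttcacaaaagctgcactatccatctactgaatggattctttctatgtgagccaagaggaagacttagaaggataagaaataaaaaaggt
Rbp3 (chr14:33953753-33953972, plus strand): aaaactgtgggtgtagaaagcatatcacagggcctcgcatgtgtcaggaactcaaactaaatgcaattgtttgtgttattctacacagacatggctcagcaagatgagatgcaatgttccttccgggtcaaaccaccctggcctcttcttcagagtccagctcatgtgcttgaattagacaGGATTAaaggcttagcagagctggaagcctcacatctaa
Abca4 (chr3:122044210-122044429, plus strand): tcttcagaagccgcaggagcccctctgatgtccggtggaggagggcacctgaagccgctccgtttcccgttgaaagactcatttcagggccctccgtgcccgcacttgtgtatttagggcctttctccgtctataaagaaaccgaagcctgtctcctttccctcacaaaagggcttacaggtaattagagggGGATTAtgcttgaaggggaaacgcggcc
One match was found in the windows of Abca4 (first base 58 before the start), Rbp3 (69 before it) and Rgr (167 before it), and no match in those of Rlbp1, Rdh8 and Rdh12. Over 32851 promoters of the same length, 5.64% held the motif on either strand. The motif TAATTA, which is its own reverse complement, occurred in the Abca4 window and in no other of the 6, against 4.54% of all promoters. TGCTGAC, part of the recognition sequence of the rod factor NRL, was found on neither strand of the 6 windows, against 3.30% of all. These are matches of letters, not binding sites.

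In WT the glial genes were 11.1- to 212-fold higher in MG-like than in rod-like cells, and Rdh12, Rbp3 and Abca4 were lower in MG-like cells by ratios of 0.0216 to 0.0424. Of the 6 members past the count minimum in WT, 3 were higher and 3 lower in MG-like than in rod-like cells, whereas 25.9% of 11613 genes were higher and 24.4% lower. In the rd10-vehicle library 2 were higher and 3 lower (25.6% and 24.3% of all genes), with Rgr just short of the mark at 1.98-fold. In the rd10-TMB library 3 were higher and 3 lower (28.2% and 23.4%). The Rgr ratio rested on almost no photoreceptor counts, with 40 UMIs in MG-like against 1 in rod-like cells of WT (log2 3.47, 1.88 to 9.78), 101 against 1 in rd10-vehicle (0.98, -0.54 to 7.29), and 143 against 0 in rd10-TMB, where 3 counts would be 2.37 CPM. Against cone-like cells the glial genes were again higher in all 3 libraries, beside 25.3%, 29.1% and 28.6% of all genes, and each photoreceptor gene past the minimum was lower, beside 18.5%, 19.2% and 19.4%. Rlbp1, Rdh10, Rdh12, Rbp3 and Abca4 thus kept their direction between MG-like and both photoreceptor classes in each library, as the plot of levels by cluster shows, while Rdh8 was under the minimum for MG-like against rod-like cells in all 3.

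**Figure D1:**
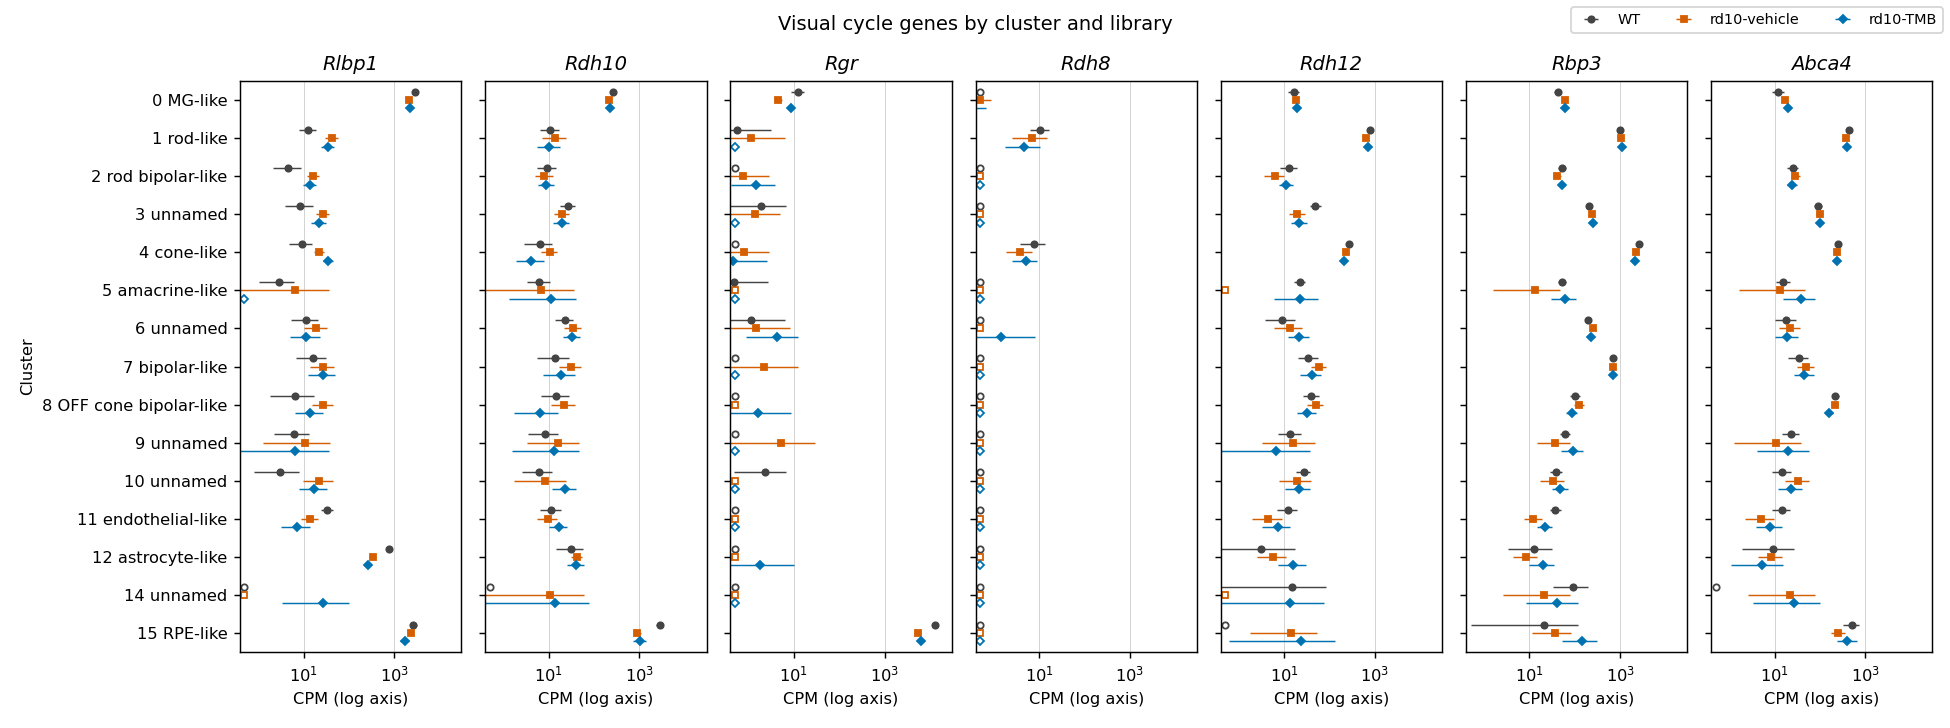
Level of each member in CPM (log axis) in the clusters with at least 10 cells in each library, 1 panel per gene, with circles for WT, squares for rd10-vehicle and diamonds for rd10-TMB. Lines are exact 95% Poisson intervals and open symbols at the left edge mark 0 UMIs. Rlbp1 and Rdh10 stand out in clusters 0 and 15, Rgr in cluster 15, Rdh12 in cluster 1, and Rbp3 in clusters 4, 1 and 7.

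Rlbp1, the retinoid-binding protein of glia, reached 2825 CPM (95% interval 2768 to 2883) in WT MG-like cells, 2115 CPM (2096 to 2134) in rd10-vehicle and 2197 CPM (2175 to 2220) in rd10-TMB. The WT interval lay above the intervals of both rd10 libraries. On the log2 scale rd10-vehicle differed from WT by -0.42 (-0.45 to -0.39), short of the 1.5-fold mark. Under TMB the ratio to vehicle was 0.06 (0.04 to 0.08), a difference of 3.91%, and the ratio to WT was -0.36 (-0.40 to -0.33). Neither difference from WT passed the mark. The other Müller glia genes of the reference list had log2 ratios of rd10-vehicle to WT in MG-like cells of -0.45 for Glul, -0.49 for Slc1a3, -0.25 for Dkk3 and 0.40 for Apoe, none past the mark, while Car14 was lower (-0.84) and Clu higher (0.74). The MG-like cluster held 94.6%, 97.5% and 98.5% of all Rlbp1 UMIs of the WT, rd10-vehicle and rd10-TMB libraries.

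Nearly every MG-like cell carried Rlbp1. A UMI was found in 521 of 530 WT cells (98.3%, exact Clopper-Pearson interval 96.8 to 99.2), in 2466 of 2492 cells of the vehicle pool (99.0%) and in 1733 of 1748 of the TMB pool (99.1%). The median cell held 17, 18 and 20 Rlbp1 UMIs, at median depths of 6300, 8593.5 and 9454.5 UMIs. With each cell thinned to 1000 UMIs the shares became 90.3%, 86.9% and 86.9%, and the thinned level kept WT above both rd10 libraries (2755, 2271 and 2324 CPM). The count per thinned cell varied more than a Poisson count would, with ratios of variance to mean of 1.36, 1.30 and 1.24. Rod-like cells, which should lack Rlbp1, had a UMI in 1.78%, 5.76% and 4.96% of cells at median depths of 1423, 1406 and 1536 UMIs, and after thinning in 1.15%, 4.51% and 3.30%.

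Rdh10, the retinol dehydrogenase shared by glia and RPE, gave 258 CPM (241 to 276) in WT, 215 CPM (208 to 221) in rd10-vehicle and 224 CPM (217 to 231) in rd10-TMB MG-like cells. Its rd10 intervals overlapped each other and lay below that of WT. The log2 ratios were -0.27 (-0.37 to -0.16) for rd10-vehicle over WT, 0.06 (-0.00 to 0.12) for rd10-TMB over rd10-vehicle, and -0.21 (-0.31 to -0.10) for rd10-TMB over WT, none past the 1.5-fold mark. A UMI was present in 66.4%, 72.2% and 74.4% of the MG-like cells, but after thinning in 19.9%, 17.2% and 16.9%, so the order of the unthinned shares was not kept at equal depth. MG-like cells held 73.7% of the Rdh10 UMIs in WT, where the RPE-like cells held 11.5%, and 91.5% and 94.2% in the rd10 libraries.

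Rgr, the retinal isomerizing opsin, was scarce in MG-like cells, with 12.05 CPM (8.61 to 16.4) from 40 UMIs in WT, 4.55 CPM (3.71 to 5.53) from 101 UMIs in rd10-vehicle and 8.52 CPM (7.18 to 10.0) from 143 UMIs in rd10-TMB. The rd10-vehicle interval overlapped neither of the others. Rgr was lower in rd10-vehicle than in WT with a log2 ratio of -1.43 (-1.95 to -0.84), and higher under TMB than under vehicle with a ratio of 0.90 (0.53 to 1.29). Against WT the rd10-TMB ratio was -0.52 (-1.01 to 0.04), an interval that includes 0. It was the single glial gene past 1.5-fold in MG-like cells between libraries.

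Of the 6 members past the minimum in MG-like cells, 1 was lower in rd10-vehicle than in WT (Rgr) and none higher, where 12.4% of 13871 genes were lower and 9.78% higher. Between rd10-TMB and rd10-vehicle 1 was higher (Rgr), where 2.36% of 14464 genes were higher and 3.75% lower. Between rd10-TMB and WT 1 was higher, the photoreceptor gene Abca4, where 7.88% of 13473 genes were higher and 11.7% lower. The median log2 ratio of the 3 glial genes was -0.42, 0.06 and -0.36 in these comparisons, beside -0.07, -0.02 and -0.09 over all genes. With so few members, 1 call is near the share of all genes in the comparisons with WT.

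**Figure D2:**
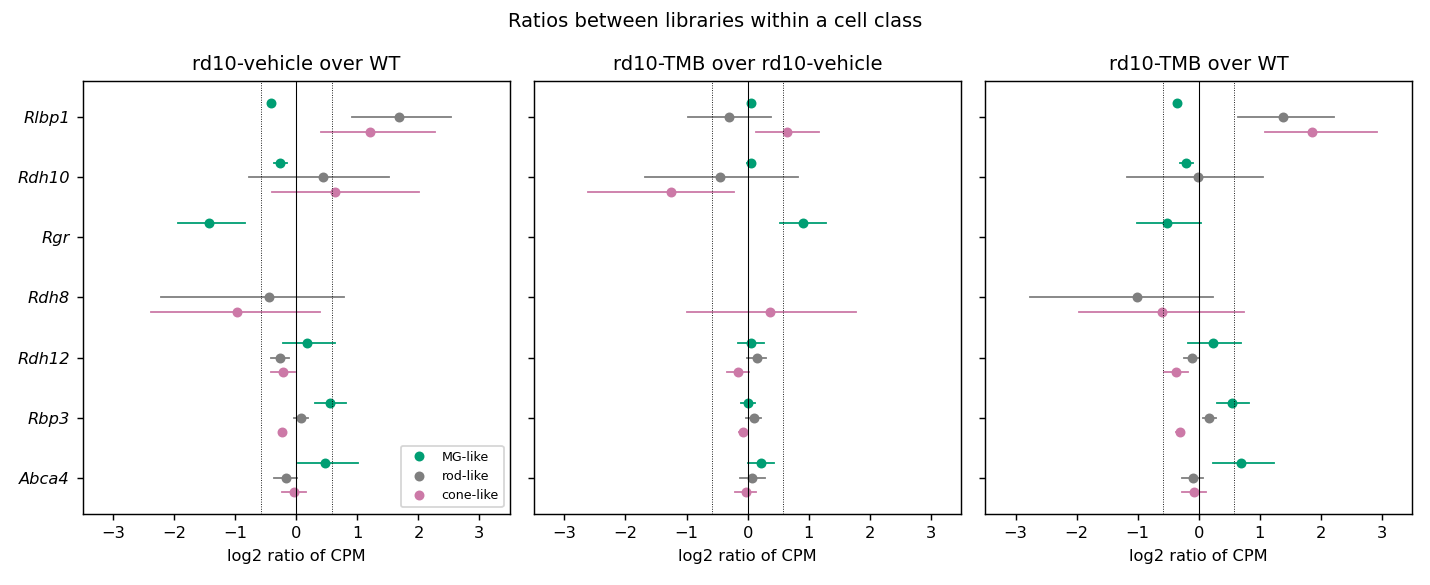
Log2 ratios of CPM between libraries for each member past the count minimum, within MG-like (green), rod-like (grey) and cone-like (pink) cells, with exact 95% intervals from counting. Dotted lines mark 1.5-fold. In MG-like cells Rgr lies left of the marks for rd10-vehicle over WT and right of them for rd10-TMB over rd10-vehicle, while Rlbp1 and Rdh10 stay between them.

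The Rgr calls rested on single UMIs per cell. A UMI was found in 37 of 530 WT cells (6.98%), 90 of 2492 under vehicle (3.61%) and 129 of 1748 under TMB (7.38%), and 34, 81 and 117 of these cells held exactly 1. No MG-like cell held 5 or more. In the 1 thinning drawn, 8 of 527, 17 of 2476 and 13 of 1727 cells kept a UMI (1.52%, 0.687% and 0.753%), and the TMB to vehicle log2 ratio became 0.08 (-1.10 to 1.16). The interval of that draw contained the value from all UMIs, and the average of the CPM of each cell, which also removes the weight of deep cells, gave 0.93. The difference between the rd10 libraries was thus not detectable at 1000 UMIs per cell.

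Most Rgr UMIs of the dissociated retina lay in RPE-like cells. These cells held 13001 CPM (12003 to 14060) in WT, 5406 CPM (5027 to 5805) in rd10-vehicle and 6413 CPM (5672 to 7224) in rd10-TMB, and the 13, 35 and 16 cells carried 92.8%, 87.1% and 63.9% of the Rgr UMIs of their libraries. MG-like cells carried 5.92%, 11.6% and 33.7%. In all cells outside clusters 0 and 15 the level was 0.580 CPM (0.265 to 1.10), 0.750 CPM (0.374 to 1.34) and 0.808 CPM (0.388 to 1.49), below the MG-like level of the same library and with intervals that overlapped between libraries.

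Other transcripts of the RPE were measured in the same glia. Of the 11 RPE markers, 5 were at 0 UMIs in WT MG-like cells (Rpe65, Lrat, Tyrp1, Mlana and Stra6), none in rd10-vehicle and 2 in rd10-TMB (Rpe65 and Mlana), and the isomerase gene Rpe65 had 0, 1 and 0 UMIs. The summed level of the list was 259, 174 and 203 CPM, of which Rrh, the peropsin gene, made 246, 154 and 185 CPM. Without Rrh the other 10 markers summed to 28.5, 26.6 and 21.1 CPM in MG-like cells with an Rgr UMI and to 11.7, 19.7 and 17.5 CPM in those without. These sums rested on 7, 24 and 27 UMIs against 36, 419 and 271 UMIs. In MG-like cells that had no UMI of these 10 markers the Rgr ratios were -1.38 for rd10-vehicle over WT and 1.05 for rd10-TMB over rd10-vehicle, as large as in all MG-like cells within counting error. Most MG-like cells had no such UMI: of 2402 rd10-vehicle cells without Rgr, 343 had one. The selection thus could not set apart cells with free RPE RNA, whose part in the Rgr values was not tested.

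RPE-like cells also held Rlbp1 at 2633, 2356 and 1704 CPM, Rdh10 at 2779, 888 and 1018 CPM and Abca4 at 498, 251 and 402 CPM in WT, rd10-vehicle and rd10-TMB, whereas Rdh8 had 0 UMIs. For Rlbp1 the RPE-like intervals (2195 to 3133, 2108 to 2624 and 1333 to 2146 CPM) overlapped those of MG-like cells in WT and rd10-vehicle and lay below them in rd10-TMB. With 13 to 35 cells these levels describe few cells, and the part of the dissection in their number was not tested. Astrocyte-like cells (cluster 12, with 20, 88 and 33 cells) held Rlbp1 at 778, 342 and 261 CPM, the third level in order by the mean over libraries among clusters with at least 10 cells in each, and Rdh10 at 30.9, 41.2 and 40.8 CPM.

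MG-like cells of the rd10 libraries were also set apart by a UMI of Lcn2, a gene of reactive glia. Such a UMI was present in 26.2% of MG-like cells in rd10-vehicle and 17.2% in rd10-TMB (13.0% and 6.66% after thinning), against 1.62% and 2.41% of rod-like and 7.75% and 1.46% of cone-like cells, and the part of free RNA in this division was not tested. Rlbp1 was 1531 CPM (1503 to 1559) in the 653 rd10-vehicle cells with an Lcn2 UMI and 2410 CPM (2385 to 2435) in the 1839 cells without. In rd10-TMB the 300 cells with Lcn2 had 1486 CPM (1449 to 1524) and the 1448 cells without had 2425 CPM (2398 to 2452). Rlbp1 was thus lower where Lcn2 was found in both libraries, as was Glul, the glutamine synthetase gene of Müller glia (4490 against 7638 CPM and 4734 against 8400 CPM).

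Rdh10 stood the other way round. It was 269 CPM (257 to 281) with Lcn2 and 187 CPM (180 to 194) without in rd10-vehicle, and 325 CPM (307 to 343) against 191 CPM (184 to 199) in rd10-TMB. Rgr went with Rlbp1, at 2.28 CPM (1.33 to 3.65) against 5.70 CPM (4.55 to 7.05) in rd10-vehicle and 5.17 CPM (3.2 to 7.90) against 9.60 CPM (7.97 to 11.5) in rd10-TMB. Cells with Lcn2 were deeper, with medians of 10153 against 8175 UMIs and 11722 against 9064.5 UMIs, and the part of depth in these differences was not tested. In WT 9 cells carried Lcn2, too few to compare. Among cells without Lcn2 the rd10-vehicle to WT ratio was -0.26 for Rlbp1, -0.41 for Rdh10 and -1.11 for Rgr, against -0.42, -0.27 and -1.43 in all MG-like cells.

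**Figure D3:**
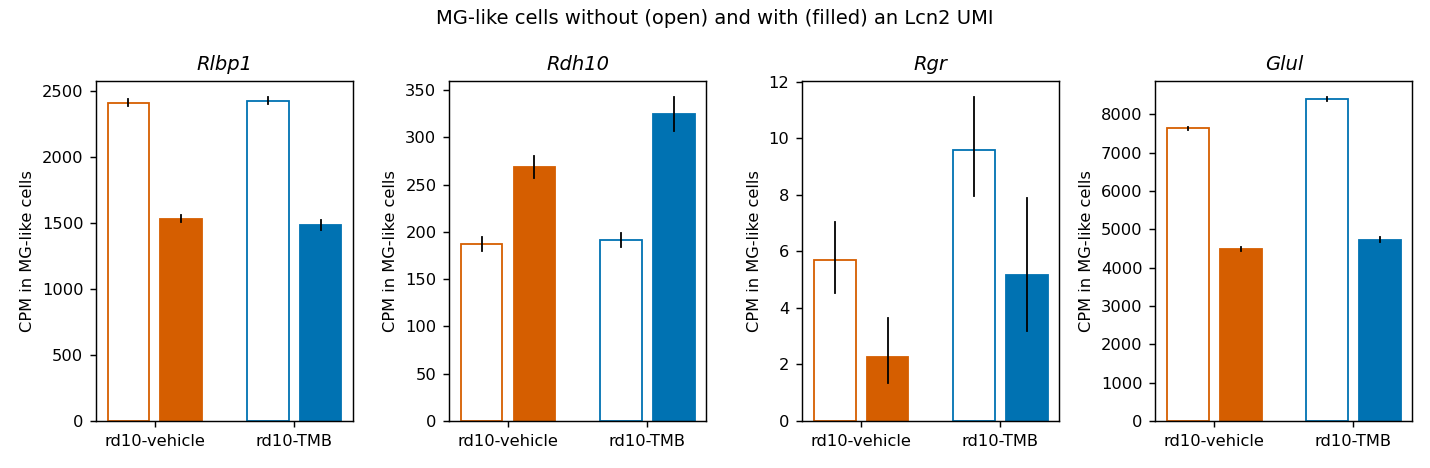
CPM of Rlbp1, Rdh10, Rgr and Glul in MG-like cells without (open bars) and with (filled bars) an Lcn2 UMI in the rd10-vehicle and rd10-TMB libraries, with exact 95% Poisson intervals. Rlbp1, Rgr and Glul bars are lower with Lcn2, and Rdh10 bars are higher (269 against 187 CPM and 325 against 191 CPM).

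Rdh12, the retinal reductase of the inner segment, was strongest in rod-like cells, with 765 CPM (725 to 806) in WT, 636 CPM (583 to 691) in rd10-vehicle and 706 CPM (660 to 754) in rd10-TMB. The rd10-vehicle interval lay below that of WT, and the rd10-TMB interval overlapped both. The log2 ratios were -0.27 (-0.41 to -0.12), 0.15 (-0.00 to 0.31) and -0.12 (-0.24 to 0.01) for rd10-vehicle over WT, rd10-TMB over rd10-vehicle and rd10-TMB over WT. In cone-like cells Rdh12 stood at 263, 226 and 203 CPM, 0.345, 0.356 and 0.288 of the rod-like level. The cone-like ratio of rd10-TMB to WT was -0.38 (-0.58 to -0.17), a further difference short of 1.5-fold.

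Rdh8, the outer segment reductase, was near the limit of detection. Rod-like cells gave 19, 6 and 6 UMIs (10.6, 6.97 and 4.75 CPM) and cone-like cells 11, 10 and 11 UMIs (7.72, 3.90 and 5.06 CPM) in WT, rd10-vehicle and rd10-TMB. Outside clusters 1 and 4 there were 0 UMIs over 3020 WT cells, which allows up to 0.236 CPM, and 11 and 6 UMIs in the rd10 libraries, of which MG-like cells held 11 and 5. Rdh8 passed the 1.5-fold mark downward in cone-like cells for rd10-vehicle over WT (log2 -0.97, -2.38 to 0.39), and for rd10-TMB over WT in rod-like (-1.01, -2.77 to 0.23) and cone-like cells (-0.61, -1.96 to 0.74). All these intervals include 0, so a difference was not detectable at this depth, and after thinning the rod-like ratio of rd10-TMB to WT was 0.16 (-1.70 to 1.82).

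Rbp3, the retinoid carrier of the interphotoreceptor matrix, was found in photoreceptors and bipolar cells. Cone-like cells held 2633 CPM (2549 to 2719) in WT, 2249 CPM (2191 to 2308) in rd10-vehicle and 2126 CPM (2065 to 2188) in rd10-TMB, intervals that did not overlap. The log2 ratios were -0.23 (-0.29 to -0.17), -0.08 (-0.14 to -0.03) and -0.31 (-0.37 to -0.25) in the order rd10-vehicle over WT, rd10-TMB over rd10-vehicle and rd10-TMB over WT. In rod-like cells the level was 986 CPM (941 to 1033), 1038 CPM (971 to 1108) and 1113 CPM (1055 to 1172), with the order reversed and ratios of 0.07 (-0.04 to 0.19), 0.10 (-0.02 to 0.22) and 0.17 (0.07 to 0.28). None of these passed 1.5-fold. The cone-like ratio of TMB to vehicle changed sign to 0.024 (log2) once cells with over 10% mitochondrial UMIs were left out, with an interval that included 0. The rod-like ratio of rd10-TMB to WT did not keep its sign either, since in cells with at least 1000 detected genes it was -0.12 (-0.28 to 0.03).

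Cone-like cells exceeded rod-like cells in Rbp3 by 2.67-, 2.17- and 1.91-fold. Between cones and rods in WT 1 member was higher (Rbp3) and 1 lower (Rdh12), where 8.87% of all genes were higher and 12.3% lower. The rd10-vehicle library gave the same counts (10.0% and 10.8% of all genes), and in the rd10-TMB library none was higher and 2 were lower, Rdh12 and Rdh10 (10.4% and 10.9%). Outside the photoreceptors Rbp3 measured 679, 687 and 683 CPM in the bipolar-like cluster 7 (143, 178 and 128 cells), below the rod-like level of each library and with intervals that overlapped between libraries. Clusters 3 and 6, left unnamed by the markers, held 201 to 245 CPM and 192 to 249 CPM, and the OFF cone bipolar-like cluster 8 held 87.0 to 122 CPM.

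Rbp3 was also uneven among single photoreceptors. After thinning, the ratio of variance to mean was 1.31, 1.48 and 1.68 in rod-like and 1.26, 1.51 and 1.54 in cone-like cells of WT, rd10-vehicle and rd10-TMB. Rdh12 and Abca4 stayed between 0.921 and 1.15 in the same cells, at lower thinned means (0.219 to 0.275 UMIs in cone-like cells). Since this ratio can grow with the mean, it was not ranked between genes. The thinned Rbp3 mean in cone-like cells was 2.57, 2.30 and 2.16 UMIs, with maxima of 10, 13 and 15 over 273, 531 and 397 cells. The 95th percentile was 6, 6 and 5 UMIs.

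Abca4, the disc membrane flippase, gave 427 CPM (397 to 458) in WT, 378 CPM (338 to 421) in rd10-vehicle and 397 CPM (363 to 434) in rd10-TMB rod-like cells. In cone-like cells it measured 246, 239 and 233 CPM, 0.577 to 0.631 of the rod-like level. All the intervals overlapped between libraries within a class. The log2 ratios ran from -0.17 to 0.07 in rod-like and from -0.08 to -0.03 in cone-like cells. OFF cone bipolar-like cells (cluster 8) held Abca4 at 218 CPM (182 to 258), 210 CPM (174 to 252) and 158 CPM (129 to 192), with intervals that overlapped those of cone-like cells in WT and rd10-vehicle and lay below in rd10-TMB, and cluster 3 held 90.4 to 98.9 CPM.

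Counted over a whole library, the photoreceptor transcripts shifted between classes with the cell numbers. Rod-like cells carried 67.1%, 32.5% and 49.3% of the Rdh12 UMIs of WT, rd10-vehicle and rd10-TMB, and 47.9%, 17.9% and 29.0% of the Abca4 UMIs. Cone-like cells carried 54.6%, 63.2% and 56.9% of the Rbp3 UMIs, and rod-like cells 25.8%, 9.79% and 17.3%. MG-like cells, of which 530, 2492 and 1748 were recovered, carried 2.63%, 24.5% and 17.9% of the Rdh12 UMIs, 2.50%, 20.8% and 19.1% of the Abca4 UMIs and 2.01%, 14.8% and 12.7% of the Rbp3 UMIs, so that in rd10-vehicle they held more Abca4 and Rbp3 UMIs than the rod-like cells. The rod-like shares moved with the 1180, 556 and 746 rod-like cells recovered, whereas the CPM within rods differed by less than 1.5-fold. How far recovery from dissociation set these cell numbers was not tested.

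Over the photoreceptors as a whole, 1 of 6 members was higher in rod-like cells of rd10-vehicle than of WT (Rlbp1), beside 8.29% of 9111 genes higher and 12.2% lower. None of 5 differed past the mark between rd10-TMB and rd10-vehicle (6.08% and 7.74% of 8387 genes), and between rd10-TMB and WT 1 of 6 was higher (Rlbp1) and 1 lower (Rdh8), beside 6.42% and 11.5% of 9340 genes. In cone-like cells 2 of 6 members, Rlbp1 and Rdh10, were higher and Rdh8 lower in rd10-vehicle than in WT (6.23% and 8.68% of 9729 genes). After thinning both higher calls stood the other way round, with Rlbp1 at 21.98 CPM in WT and 16.9 CPM in rd10-vehicle (6 and 9 cells with a UMI) and Rdh10 at 7.33 and 5.65 CPM (2 and 3 cells), levels of few UMIs from which no order was read. Between the rd10 libraries 1 of 6 was higher (Rlbp1) and 1 lower (Rdh10), beside 3.41% and 5.19% of 9940 genes, and between rd10-TMB and WT 1 of 5 was higher (Rlbp1) and 1 lower (Rdh8), beside 5.27% and 8.9% of 9480 genes. Rdh12, Rbp3 and Abca4, the photoreceptor genes with ample counts, were in none of these calls.

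The calls of the glial genes in photoreceptors came at levels that other glial transcripts also reached there. Rlbp1 in rod-like cells was 12.8 CPM (8.11 to 19.2), 41.8 CPM (29.3 to 57.9) and 34.0 CPM (24.6 to 45.8), that is 0.453%, 1.98% and 1.55% of the MG-like level. The 6 glial reference genes (Glul, Slc1a3, Apoe, Clu, Dkk3 and Car14) stood in rod-like cells at a median of 0.708%, 1.55% and 1.52% of their MG-like level, with maxima of 1.66%, 2.41% and 2.21%. Rlbp1 lay within the range of these genes in each library. Between libraries the reference genes differed among themselves in rod-like cells. For rd10-vehicle over WT, Glul (log2 0.81), Apoe (2.15) and Clu (2.50) were higher, Dkk3 (-0.21) and Car14 (0.26) did not pass the mark and Slc1a3 was under the minimum, and for rd10-TMB over WT 5 were higher and Dkk3 was lower (-0.71). The part of free glial RNA in the rod-like Rlbp1 values was not tested.

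In cone-like cells Rlbp1 was 9.12, 22.2 and 35.0 CPM, 0.323%, 1.05% and 1.59% of the glial level, where the reference genes had medians of 0.327%, 0.853% and 0.964% and maxima of 5.01%, 5.33% and 6.32%. Rdh10 was at 4.10%, 6.50% and 4.60% of its glial level in rod-like cells, on 19, 12 and 13 UMIs, above the highest reference gene in each library. In cone-like cells it was at 2.45%, 4.91% and 1.85%, on 9, 27 and 9 UMIs, below Clu, the highest reference gene, and above the other 5, which reached at most 0.745%, 1.61% and 1.51%. Its cone-like log2 ratio of TMB to vehicle was -1.25 (-2.62 to -0.21).

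Rod genes in glia were measured in the same way. The 11 rod reference genes (among them Gnat1, Sag and Nrl) stood in MG-like cells at a median of 1.60%, 2.77% and 2.77% of their rod-like level, with maxima of 2.37%, 3.54% and 3.37%. Rdh12, at 2.13%, 2.92% and 2.74%, lay within the range of these genes in every library. Rbp3, at 4.22%, 5.88% and 5.51%, and Abca4, at 2.82%, 4.51% and 4.98%, lay above the highest of them. Rdh8 had 11 and 5 UMIs in MG-like cells of rd10-vehicle and rd10-TMB, at 7.11% (2.41 to 23.4) and 6.28% (1.51 to 24.7) of a rod-like level that itself rested on 6 UMIs in each. Rbp3 and Abca4 are also present in cone-like and bipolar cells, and the part of those cells in the glial values was not tested. In CPM, Rbp3 in MG-like cells was 41.6, 61.0 and 61.3 and Abca4 12.05, 17.0 and 19.8, and the Abca4 call in MG-like cells (log2 0.68 for rd10-TMB over WT, 0.24 to 1.23) was at this level. In that comparison the rod reference genes Sag (1.13), Pdc (1.12), Pde6g (0.86), Cnga1 (0.84), Prph2 (0.81) and Nr2e3 (0.75) were also higher. Rom1 (0.55), Nrl (0.51), Gnat1 (0.28), Pde6a (0.27) and Rp1 (0.25) did not pass the mark. The part of free rod RNA in the Abca4 call was not tested.

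**Figure D4:**
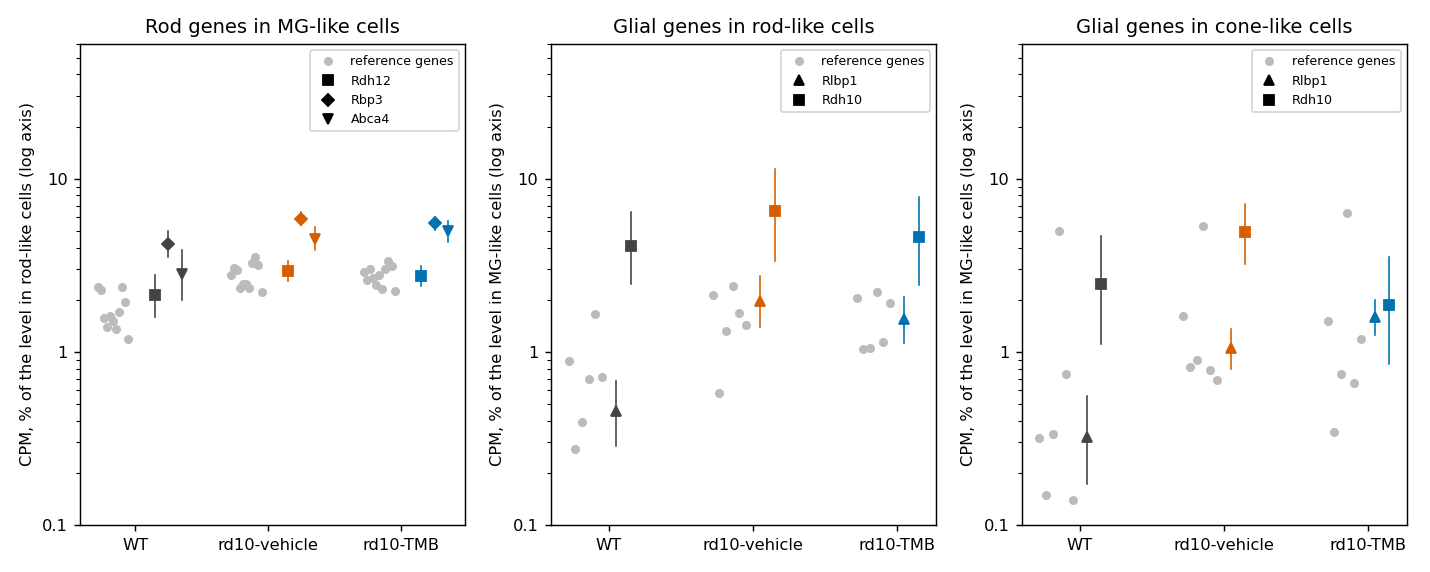
Level of rod genes in MG-like cells (left) and of glial genes in rod-like (middle) and cone-like cells (right), as percent of the level in the home class on a log axis. Grey points are reference genes and coloured symbols are members with at least 3 UMIs there and at least 20 in the home class, which leaves out Rdh8 and Rgr, with 95% counting intervals. Rdh12 and, in rod-like cells, Rlbp1 lie among the reference genes, while Rbp3 and Abca4 lie above the rod reference genes.

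A further 48 genes of opsins, retinoid enzymes, binding proteins and retinoic acid metabolism were listed, of which 43 were in the matrix. In MG-like cells 28 passed the minimum for rd10-vehicle over WT, and 7 were higher and 2 lower, beside 9.78% and 12.4% of all genes. The higher genes were Dhrs3, a retinal reductase (20.8, 34.8 and 34.2 CPM in WT, rd10-vehicle and rd10-TMB), Cyp26a1, which degrades retinoic acid (18.4, 28.4 and 20.1 CPM), the receptor genes Rarg and Rxrg, Crabp1, Dhrs9 and Opn1mw (10.8, 33.4 and 33.8 CPM). Opn1mw encodes a cone opsin and Rxrg is also a gene of cones, of which the libraries held 278, 542 and 412, and the part of free cone RNA in their glial values was not tested. The lower ones were Rrh (246, 154 and 185 CPM) and Degs1, a desaturase also described as a retinol isomerase (82.8, 49.1 and 45.7 CPM). The median log2 ratio of the list was 0.07, beside -0.07 over all genes.

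For rd10-TMB over rd10-vehicle 1 of 29 was higher, Cyp26b1, a second enzyme of retinoic acid breakdown (7.23, 7.43 and 15.02 CPM, log2 1.01, 0.73 to 1.31), and 2 were lower, Dhrs9 and Degs2, beside 2.36% and 3.75% of all genes. For rd10-TMB over WT 7 of 27 were higher and 2 lower, beside 7.88% and 11.7% of all genes. The higher genes were Opn1mw, Dhrs3, Dhrs9, Crabp1, Cyp26b1, Rarg and Rxrg, and the lower ones Degs1 and Rbp7.

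Aldh1a1, which makes retinoic acid, stood at 261, 323 and 319 CPM and Dhrs7 at 180, 128 and 127 CPM, neither past the mark. In rod-like cells 1 listed gene was higher and 2 lower of 13 for rd10-vehicle over WT (8.29% and 12.2% of all genes), 2 and 1 of 12 for rd10-TMB over rd10-vehicle (6.08% and 7.74%), and 1 and 1 of 13 for rd10-TMB over WT (6.42% and 11.5%). In cone-like cells the counts were 2 and 2 of 16 (6.23% and 8.68%), 0 and 3 of 17 (3.41% and 5.19%), and 1 and 4 of 14 (5.27% and 8.9%). In the RPE-like cells the genes of the classical cycle were present, Rpe65 at 2571, 1317 and 1538 CPM, Lrat at 2198, 859 and 521 CPM and Rdh5 at 4354, 3673 and 3242 CPM.

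**Figure D5:**
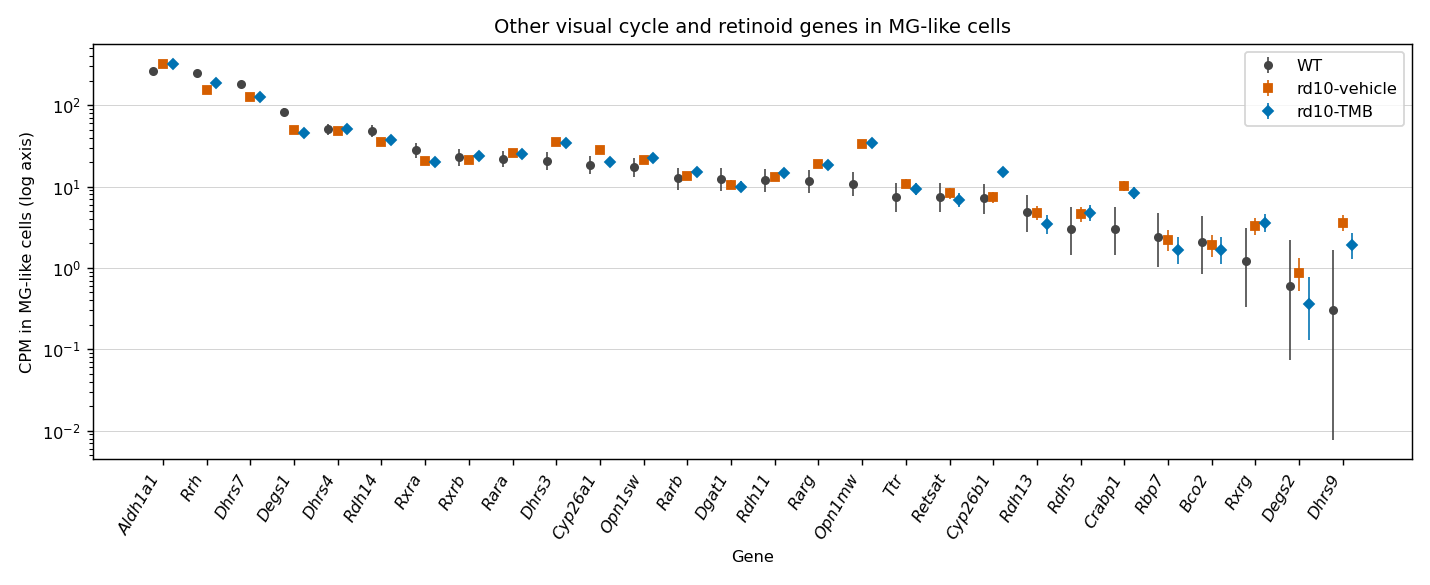
CPM (log axis) in MG-like cells of the 28 other visual cycle and retinoid genes past the count minimum for rd10-vehicle and WT, ordered by the WT level, with exact 95% Poisson intervals. Dhrs3, Rarg, Opn1mw and Crabp1 lie higher in both rd10 libraries, Rrh and Degs1 lie lower, and Cyp26b1 is higher in rd10-TMB (15.02 CPM).

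Across 35 combinations of cluster and library with at least 50 cells, the genes whose pattern was most like that of a member were found among 13331 genes by Pearson's r of log2(CPM + 10). These points share libraries, depth and free RNA, and the RPE-like cells were too few to enter, so r is given as a description. Rlbp1 was nearest to Espn (0.97), Crym (0.97) and Car14 (0.97), and Rdh10 to Sox8 (0.93), Hkdc1 (0.92) and Fgf8 (0.91). For Rgr the nearest were Gm49542 (0.86), Pax6os1 (0.83) and Gm15934 (0.83). At these points Rgr stood at 12.05 CPM or less and Rdh8 at 10.6 CPM or less. Both lay near the 10 CPM added before the log, so their r describes levels close to the floor.

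The photoreceptor members followed in the same way. Rdh12 was nearest to Sag (0.97), Pde6g (0.97) and Rp1 (0.97), Rdh8 to Gm17231 (0.95), Ppm1n (0.95) and Rp1l1 (0.94), Rbp3 to Rpgrip1 (0.93), Gucy2e (0.93) and Pcdh15 (0.92), and Abca4 to Gngt1 (0.94), Cdhr1 (0.93) and AI847159 (0.92). Among the members, Rlbp1 and Rdh10 had an r of 0.89 and Rdh12 and Rdh8 one of 0.90. Rlbp1 with each photoreceptor gene lay between -0.18 and -0.05.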

How the data were processed

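The deposited matrix held 18545 genes in 15242 cells as natural log values, made by the authors as the natural log of 1 plus the count scaled to 10000 per cell, with per-cell totals, cluster numbers and library names alongside. Per the labels, reads were processed with Cell Ranger 6.0.1 and Seurat 3.2.2 on mm10, from 10x v3 libraries of polyA RNA. Cells with fewer than 500 genes and doublets called by Scrublet had been removed by the authors before deposit, and no doublet caller was run here. The raw counts were recovered from the deposited natural log values and per-cell totals: 100% of 32620606 entries were whole within 0.001 UMI, and each cell's sum equalled its deposited count of UMIs.

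UMIs were summed per cluster or class and library and given as CPM with exact Poisson intervals. Ratios used a pseudocount of 1 UMI per library and exact conditional intervals, shares exact Clopper-Pearson intervals, all at 95% and for counting error only. Calls needed 20 UMIs over both sums and 1.5-fold between libraries or 2-fold between classes. A share or level at 0 was read against a floor of 3 counts or the exact upper bound. Thinning drew 1000 UMIs once per cell and left out shallower cells. Levels are of 3′ tags and are not ranked between genes.

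Clusters were named where at least 3 markers were raised 2-fold, with the visual cycle members left out of the marker lists. Names were rebuilt and may differ from those of the study. Some listed genes and 1 further way of choosing cells are not reported here. Members and lists were chosen with earlier results of these data known. Named genes were the 7 members, each gene of the other visual cycle, reference and marker lists with at least 20 UMIs in the class described, and the 3 nearest genes by Pearson's r among genes with at least 200 UMIs. Listed genes under 20 UMIs are also named where their low counts are reported. Alternatives changed the normalization, gene total, weight of cells, pseudocount, count minimum, cell filters, depth and the cells admitted, and 2 of them (cells without RPE marker UMIs and cells with unshared barcodes) were added after seeing the data. Python 3.11.15, numpy 2.4.6, scipy 1.17.1, pandas 2.3.3 and matplotlib 3.10.9 were used, and the code was tested on simulated data.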

Additional observations from a re-analysis of the deposited data

Results flagged for a closer look

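Rlbp1 and Rbp3 had ratios of opposite sign in different cell classes, with counting intervals that did not include 0 in either class. With 1 library per group the difference between the classes was not tested. Rlbp1 had a log2 ratio of rd10-vehicle to WT of -0.42 in MG-like cells against 1.69 in rod-like and 1.20 in cone-like cells. For rd10-TMB over WT it was -0.36 in MG-like cells against 1.38 in rod-like and 1.85 in cone-like cells. The photoreceptor values rested on 23, 36 and 43 UMIs in rod-like cells and 13, 57 and 76 UMIs in cone-like cells (the latter in 13, 39 and 32 cells), at 0.453% to 1.98% and 0.323% to 1.59% of the glial level, where the medians of 6 glial reference genes were 0.708% to 1.55% and 0.327% to 0.964%. After thinning to 1000 UMIs the cone-like levels of WT, rd10-vehicle and rd10-TMB were 21.98, 16.9 and 37.8 CPM, on 6, 9 and 11 cells with a UMI. No order was read from levels of so few UMIs. The opposite sign for rd10-vehicle over WT was thus not detectable in cone-like cells at that depth.

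Rbp3 had a ratio of rd10-vehicle to WT of 0.54 in MG-like cells against -0.23 in cone-like cells, and for rd10-TMB over WT of 0.55 against -0.31. The medians of 11 rod reference genes in MG-like cells, as percent of their rod-like level, were 1.60% in WT and 2.77% in both rd10 libraries, and the part of free photoreceptor RNA in the Rbp3 values was not tested. For rd10-TMB over WT, Rbp3 was at -0.31 in cone-like cells against 0.17 in rod-like cells. The rod-like value took the other sign in cells with at least 1000 detected genes, so the opposite sign was not kept there.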

How the results depend on the processing

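No paired analysis was possible because each group is 1 pooled library, and for the same reason no replicate could be left out. Each median of a gene group was set against the median of its members' lower counting limits and the median of their upper limits. Of 176 recomputations of 15 medians of gene groups, 163 stayed within these limits. In 3 of them the sign differed: the photoreceptor genes in rod-like cells became 0.0019 for rd10-vehicle over WT (-0.22) and 0.024 for rd10-TMB over WT (-0.11) after thinning, and in cone-like cells 0.047 for rd10-TMB over rd10-vehicle (-0.06) at a mitochondrial share of 10% or less, where the intervals of the first values included 0. The median of the glial genes in MG-like cells for rd10-vehicle over WT (-0.42) became -0.35 with size factors, -0.30 as a mean over cells, -0.39 without the 5% of cells with the most UMIs, -0.28 after thinning and -0.49 with the WT side limited to Xist-positive cells free of Y-linked UMIs. For rd10-TMB over rd10-vehicle (0.06) it became 0.034 after thinning and 0.032 without Lcn2 cells, and for rd10-TMB over WT (-0.36) it became -0.43 with those WT cells. The median of the photoreceptor genes in rod-like over MG-like cells became 4.19 with size factors, 4.23 after thinning and 4.81 without Lcn2 cells in rd10-vehicle (4.47), and 4.03 and 4.64 with size factors and no Lcn2 UMI in rd10-TMB (4.33). Of 328 recomputations of single members 298 stayed and 14 had another sign, 2 of them where the first interval excluded 0, both of Rbp3: rd10-TMB over WT in rod-like cells (0.17) became -0.12 in cells with at least 1000 genes, and rd10-TMB over rd10-vehicle in cone-like cells (-0.08) became 0.024 at that mitochondrial share. Results for 1 further way of choosing cells are not reported here. The cause was not tested. Depth limited Rdh8 everywhere and Rgr after thinning.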
